A study of Mus musculus with 6 samples.

Results

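The 10 genes described here encode PR-DUB, the Polycomb repressive deubiquitinase, and proteins that bind it: Asxl1, Asxl2, Bap1, Foxk1, Foxk2, Hcfc1, Ogt, Kdm1b, Mbd5 and Mbd6. They were chosen by name as known subunits and partners, with earlier results of these data known, and are 10 of the 53458 genes in the deposited tables. RNA was sequenced from sorted leukemic blasts of the bone marrow of transplanted C57/BL6 mice in 2 groups of 3 libraries. The G643W group had the genotype Cebpa-/p30; Asxl1G643W/G643W, with the altered Asxl1 gene on both chromosomes, and the WT group had the genotype Cebpa-/p30; Asxl1WT. All 6 libraries therefore shared the Cebpa-/p30 background, in which the myeloid transcription factor C/EBPα has no intact allele and is made as its short p30 form. Per the labels' protocols the sort kept CD45.2+ cells with low Mac1 and low Gr1 that lacked Ter119, B220 and CD3, and the TruSeq V2 kit was used for library preparation. The comparison asks how the Asxl1 alteration changes expression in Cebpa-mutant blasts, and here it is read for the complex that the altered protein belongs to. The labels number the libraries but do not say which came from separate leukemias, so the p-values here reflect only how these libraries vary, which may in part be technical.

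PR-DUB removes ubiquitin from histone H2A, a mark that the Polycomb complex PRC1 places on chromatin. Bap1 is the catalytic subunit and is active only with an Asxl protein bound to it, either Asxl1 or Asxl2 in most tissues. The other proteins are held on this core: Foxk1 and Foxk2 bind DNA, Hcfc1 is a scaffold shared with other chromatin regulators, Ogt attaches the sugar GlcNAc to nuclear proteins, Kdm1b removes methyl groups from histone H3, and Mbd5 and Mbd6 carry a methyl-CpG-binding fold. In human myeloid malignancies ASXL1 is often altered by truncating changes in its last exon, and BAP1 loss is known from several tumors.

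The sequences that the results turn on are shown first, because they fix where the labelled change lies and which Asxl1 transcripts can be told apart. They are from the GENCODE M21 transcripts on GRCm38, plus strand, and are read 5′ to 3′. The codon that the label G643W names in Asxl1 lies at chr2:153399455-153399457 in exon 13 of 13 of Asxl1-201, an exon of 4769 bases that holds most of the reading frame of 1514 codons. The codon is in capitals in the window chr2:153399425-153399487, where a run of 8 G bases ends 1 base before it.
Asxl1-201 at the labelled codon: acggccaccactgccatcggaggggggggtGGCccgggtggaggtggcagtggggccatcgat
The main transcripts of both Asxl genes carry an exon of only 3 bases near the start of the coding sequence, shown in capitals in 63 bases of the spliced transcript. In Asxl1-201 it lies at chr2:153354650-153354652 and in Asxl2-202 at chr12:3450251-3450253, where Asxl2-201, Asxl2-203, Asxl2-204, Asxl2-205 and Asxl2-207 have another 3-base exon in its place, at chr12:3445452-3445454.
Asxl1-201: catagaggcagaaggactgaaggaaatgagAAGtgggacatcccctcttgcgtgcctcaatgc
Asxl2-202: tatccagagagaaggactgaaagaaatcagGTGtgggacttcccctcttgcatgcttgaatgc
Asxl1-205 skips the 3-base exon, and the capitals mark the joined bases at the junction.
Asxl1-205: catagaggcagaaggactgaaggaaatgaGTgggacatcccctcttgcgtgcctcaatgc
Asxl1-202, a noncoding transcript of 355 bases, starts inside the first intron of Asxl1-201 (chr2:153347675-153348039), on a first exon of its own and a second exon that lies within the first exon of Asxl1-204. Its first 160 bases are printed with the second exon in capitals, since much of the TPM of Asxl1 in G643W libraries was given to this short transcript.
Asxl1-202: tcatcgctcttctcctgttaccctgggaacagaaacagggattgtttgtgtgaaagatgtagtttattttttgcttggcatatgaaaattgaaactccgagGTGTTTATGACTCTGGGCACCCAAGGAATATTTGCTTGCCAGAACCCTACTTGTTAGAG
The sequence shows the reference and not the reads, so the allele carried by each library was not analysed here, and gene totals do not check the genotype labels.

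**Figure D1:**
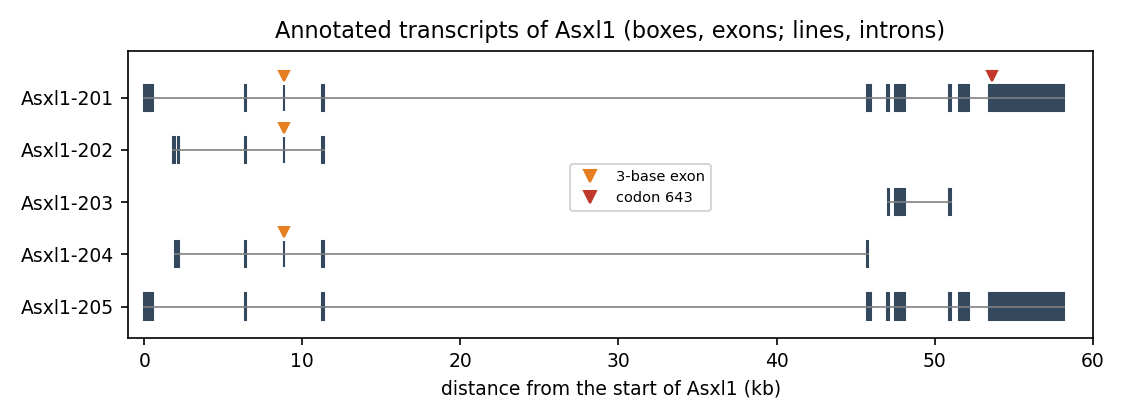
Exons (boxes) and introns (lines) of the 5 annotated Asxl1 transcripts against distance from the gene start in kilobases, with arrowheads at the 3-base exon and at the codon named in the label G643W. Asxl1-201 and Asxl1-205 span the gene and share its exon of 4769 bases, while Asxl1-202, Asxl1-203 and Asxl1-204 cover short stretches and do not reach that codon.

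All 10 genes were expressed and passed the filter on low counts. By TPM (a level scaled to transcript length and library total) the mean over all 6 libraries ran from Ogt at 27.3, Mbd6 at 24.7, Hcfc1 at 19.8, Bap1 at 14.4 and Asxl1 at 11.2 TPM down to Foxk2 at 7.07, Asxl2 at 5.09, Mbd5 at 4.21, Foxk1 at 3.99 and Kdm1b at 2.60 TPM. Each pair of neighbours in this order overlapped in range, although Hcfc1 lay above Bap1, Foxk2 above Asxl2 and Foxk1 above Kdm1b in 6 of 6 libraries. Within each pair of alternative subunits, Asxl1, Foxk2 and Mbd6 had the higher mean by this total TPM, which includes short noncoding transcripts. In coding transcripts alone Foxk1 had means of 4.33 TPM in G643W and 3.65 TPM in WT, close to Foxk2 at 4.61 and 4.45 TPM. On that scale the mean of Ogt, 12.2 TPM in G643W and 13.7 TPM in WT, lay below that of Mbd6, 20.3 and 19.0 TPM. None of the 10 genes passed the threshold between genotypes (edgeR, adjusted p under 0.05), where 0.121% of the 20654 genes tested did, and DESeq2 also called none of the 10, where it called 2.07% of those genes. Asxl1 alone had an unadjusted edgeR p under 0.05, against 9.66% of all genes. The log2 differences of 5 members were positive and of 5 negative, with a median of 0.08, beside -0.01 over all genes.

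**Figure D2:**
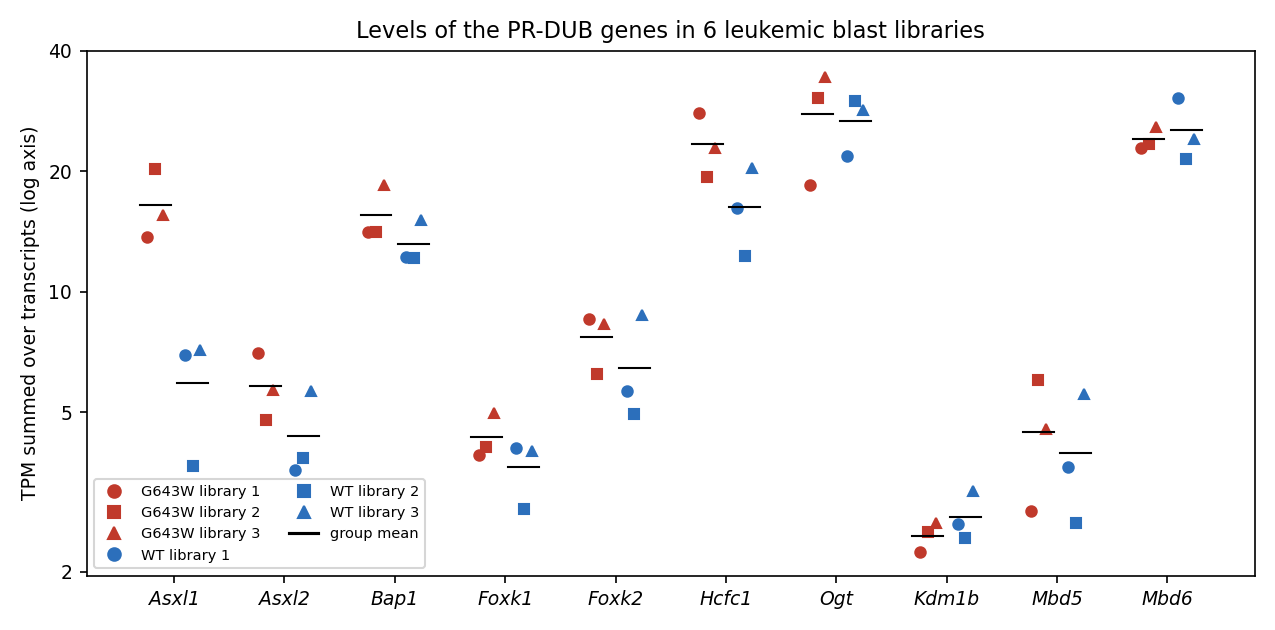
TPM of each gene (log axis) in the 3 G643W libraries (red) and the 3 WT libraries (blue), with black lines at the group means. Asxl1 is the only gene of the 10 in which the red points, from 13.7 to 20.2 TPM, all lie above the blue points, from 3.68 to 7.15 TPM.

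Asxl1 (ENSMUSG00000042548, chromosome 2, 153345829 to 153404007, plus strand), the altered subunit, was the only member in which every G643W library lay above every WT library, a pattern that 6.98% of all tested genes had by CPM (reads as a scaled share of the library, without regard to length) in that direction. It had 103, 164 and 147 CPM in G643W libraries 1 to 3, against 86.5, 54.5 and 73.8 CPM in WT libraries 1 to 3. Means were 138 ± 31.4 CPM in G643W and 71.6 ± 16.1 CPM in WT (SD, n = 3 each). The edgeR log2 difference was 0.95 ± 0.27 (SE, 95% interval from 0.31 to 1.58), where edgeR gave an unadjusted p = 0.0095 and an adjusted p = 0.454, above the threshold. By TPM the means were 16.5 ± 3.36 in G643W and 5.93 ± 1.95 in WT (SD, n = 3 each), a ratio of 2.78 where the fitted count fold was 1.93. An exact permutation test of the TPM, two-sided, gave p = 0.1, and 3 against 3 can go no lower. TPM gives short transcripts more weight than read counts do.

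Most Asxl1 reads were on the full-length coding transcripts in both genotypes. Asxl1-201 and Asxl1-205 together took 97.5, 97.4 and 98.9% of Asxl1 reads in G643W libraries and 99.4, 99.3 and 98.7% in WT libraries. Asxl1-201 had 6.67, 8.97 and 9.59 TPM in G643W and 5.31, 3.03 and 4.85 TPM in WT libraries, with no overlap (log2 difference 0.84 ± 0.28 SE, edgeR adjusted p = 0.671 over transcripts). The full-length level was thus higher in each G643W library too, by less than the gene total in TPM. Asxl1-202 had 4.65, 8.04 and 4.17 TPM in G643W, from 67, 175 and 67 estimated reads, and 0.90, 0 and 1.76 TPM in WT, from 16, 0 and 30 estimated reads (log2 difference 2.62 ± 1.34 SE, edgeR adjusted p = 0.73). This transcript held 33.9, 39.8 and 26.9% of Asxl1 TPM in G643W libraries and 12.98, 0 and 24.6% in WT libraries, but at most 1.20% of Asxl1 reads in any library. Asxl1-203, a retained-intron transcript of 717 bases, had 1.48, 1.94 and 0.34 TPM in G643W and 0.23, 0.18 and 0.50 TPM in WT libraries, which overlapped.

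Transcripts of Asxl1 share most of their sequence, which limits how far they can be separated. Asxl1-201 had no stretch of 31 bases of its own, the length taken here for a private match, since each of its stretches occurs in Asxl1-205, Asxl1-202 or Asxl1-204. Asxl1-205 had 44 private stretches of 6951, at the skipped exon and at its 5′ end, and Asxl1-202 had 99 of 325, all starting on its first exon as printed above. The form without the 3-base exon was a small part of the full-length RNA: Asxl1-205 took 7.81, 9.82 and 5.69% of the TPM of both in G643W libraries and 7.10, 6.51 and 0% in WT libraries, with overlap (two-sided exact permutation p = 0.4).

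**Figure D3:**
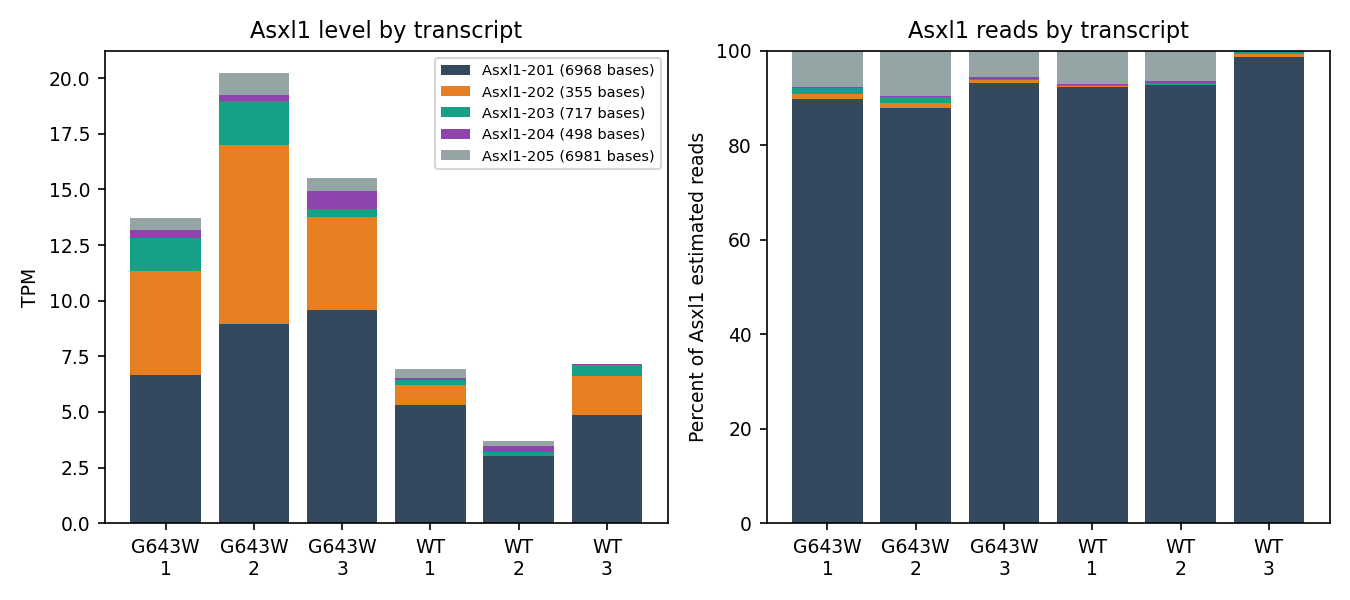
Asxl1 in each library split by transcript, as TPM (left) and as percent of Asxl1 estimated reads (right), with G643W libraries left of WT libraries. The short Asxl1-202 makes up 26.9 to 39.8% of the TPM in G643W libraries but at most 1.20% of the reads, and the full-length Asxl1-201 holds most reads in all 6 libraries.

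Most of the 5 genes with the profile most like that of Asxl1 lay on chromosome 2. Among 7361 protein-coding genes with a mean of at least 5 TPM, the 5 whose log2 CPM profile over the 6 libraries was most like that of Asxl1 were Ncoa6, a nuclear receptor coactivator, Fry, Bcl2l1, which encodes the survival factor Bcl-xL, Stk4, a kinase of the Hippo pathway, and Ralgapb, a subunit of a Ral GTPase-activating complex. Their root mean square differences from Asxl1 ran from 0.068 for Ncoa6 to 0.129 for Ralgapb in log2 units. On chromosome 2 lay 4 of these 5, Bcl2l1 at 0.6 Mb before Asxl1 and Ncoa6, Ralgapb and Stk4 at 2.0, 5.1 and 10.7 Mb after it, while 584 of the 7361 genes compared (7.93%) are on that chromosome. Ncoa6 had 62.4, 93.9 and 84.1 CPM in G643W and 52.0, 29.04 and 45.4 CPM in WT libraries. Bcl2l1 had 21.3, 26.6 and 27.3 CPM in G643W and 14.7, 9.19 and 13.2 CPM in WT libraries. In both genes, as in Asxl1, WT library 2 was the lowest. Both were picked for a profile like that of Asxl1, so the shared direction follows from the choice.

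The 63 genes within 5 Mb of Asxl1 gave the level of its region. Their median log2 CPM relative to the mean of 6 libraries was 0.28, 0.18 and 0.13 in G643W libraries and 0.20, -0.43 and -0.29 in WT libraries, so WT libraries 2 and 3 were low and WT library 1 lay among the G643W libraries. Asxl1 itself stood at 0.08, 0.75 and 0.59 in G643W and at -0.17, -0.84 and -0.40 in WT libraries on that scale. The regional medians differed by 0.37 between genotypes, beside 0.94 for Asxl1. With the regional median subtracted, Asxl1 stood at -0.20, 0.57 and 0.46 in G643W and at -0.38, -0.40 and -0.11 in WT libraries, a net log2 difference of 0.57 at which the groups overlapped (two-sided exact permutation p = 0.2). Taking 80 genes within 10 Mb gave 0.59. WT library 3 was low, from -0.29 to -0.60, in each bin of 10 Mb from 40 Mb before Asxl1 to the chromosome end, and WT library 2 was low at -0.43 and -0.39 in the bins at 0 and 10 Mb and at 0.42 in the bin after them. The part of this regional level in the Asxl1 difference was not tested.

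**Figure D4:**
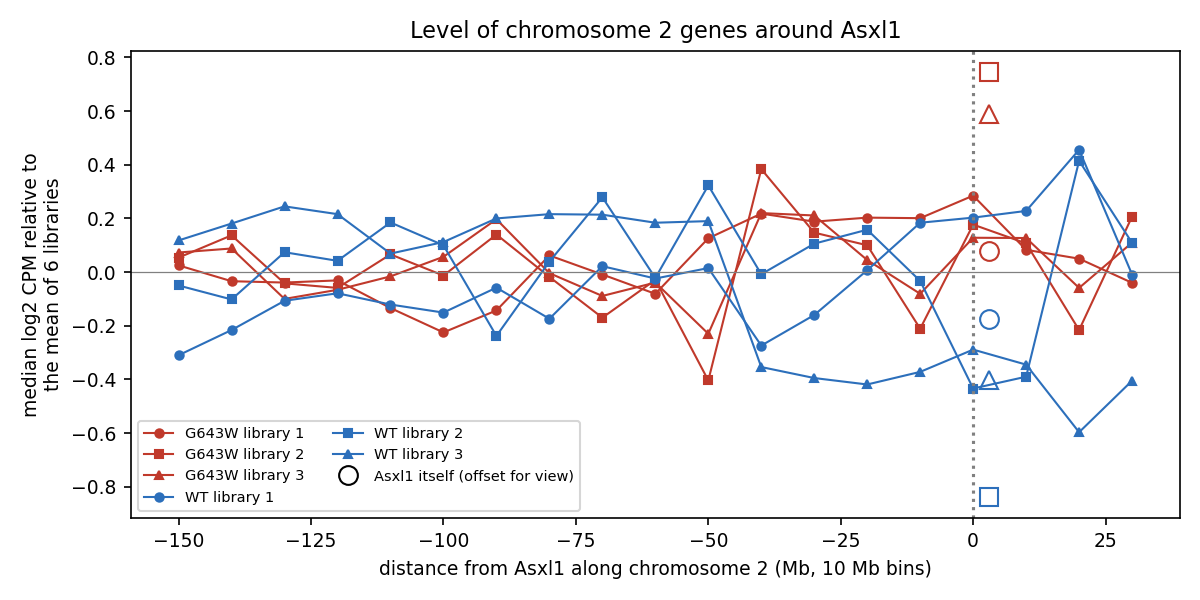
Median log2 CPM of chromosome 2 genes in bins of 10 Mb, relative to the mean of 6 libraries, against distance from Asxl1, for G643W (red) and WT libraries (blue), with open symbols for Asxl1. At Asxl1 the regional medians lie from 0.13 to 0.28 in G643W libraries and at 0.20, -0.43 and -0.29 in WT libraries 1 to 3.

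Asxl2 (ENSMUSG00000037486, chromosome 12, 3426857 to 3506852, plus strand), the alternative partner of Bap1, had 7.01, 4.78 and 5.67 TPM in G643W and 3.60, 3.86 and 5.65 TPM in WT libraries. The groups overlapped, with WT library 3 inside the G643W range. Its log2 difference was 0.28 ± 0.21 (SE, 95% interval from -0.21 to 0.77, edgeR adjusted p = 0.618). Asxl2-202, its main transcript of 8887 bases, gave 0.16 ± 0.20 (log2 difference with SE, edgeR adjusted p = 0.864). Asxl2-206, a noncoding transcript of 5561 bases picked out after its values were seen, had 403, 303 and 100 estimated reads in G643W libraries and 0 in each WT library. Against a floor of 3 reads per library, that is at least 88.0-fold higher as a share of library reads, and at least 52.1-fold higher without G643W library 1, which held the most. edgeR did not call it (adjusted p = 0.216), while DESeq2 did (adjusted p = 1.04e-09), as it did 1.78% of all transcripts. Each of its 31-base stretches also occurs in another annotated transcript, so its reads could be assigned to Asxl2-202 as well. The third gene of the family, Asxl3, was near the floor, with means of 0.16 CPM in G643W and 0.13 CPM in WT, and was not tested.

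The share of Asxl1 among the Asxl partners overlapped between genotypes by reads and lay apart by total TPM. Asxl1 made up 57.8, 72.2 and 69.3% of the summed Asxl1 and Asxl2 reads in G643W libraries and 65.1, 50.2 and 52.5% in WT libraries, with WT library 1 above G643W library 1 (two-sided exact permutation p = 0.2). By coding TPM it was 58.2, 73.2 and 70.0% in G643W and 64.8, 50.3 and 50.7% in WT libraries, with the same overlap. By total TPM, which includes the short Asxl1-202, Asxl1 made up 66.2, 80.9 and 73.2% of the summed Asxl1 and Asxl2 TPM in G643W libraries and 65.9, 48.8 and 55.9% in WT libraries. On that scale each G643W library lay above each WT library, though libraries 1 of both genotypes were nearly equal (means 73.4 ± 7.36% and 56.9 ± 8.58%, SD, n = 3 each; exact permutation p = 0.1, and 0.3 adjusted over 3 shares). The summed coding TPM of Asxl1 and Asxl2 over that of Bap1 was 1.94, 2.07 and 2.18 in G643W and 1.37, 0.933 and 1.24 in WT libraries. The groups did not overlap (exact permutation p = 0.1, not adjusted). By reads the ratio was 3.20, 3.47 and 3.45 in G643W and 2.30, 1.59 and 2.04 in WT libraries. In coding TPM Asxl1 lay apart between genotypes, while Asxl2 and Bap1 each overlapped. The ratio therefore includes the Asxl1 difference described above and is not separate from it.

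Bap1 (ENSMUSG00000021901, chromosome 14, 31251450 to 31259944, plus strand), the deubiquitinase, had 55.8, 65.6 and 61.5 CPM in G643W and 57.8, 68.3 and 68.9 CPM in WT libraries. The groups overlapped and the log2 difference was -0.09 ± 0.18 (SE, edgeR adjusted p = 0.853), with a 95% interval from -0.52 to 0.33. By TPM the direction was the other way, at 14.1, 14.1 and 18.5 TPM in G643W and 12.2, 12.1 and 15.1 TPM in WT libraries, with overlap. Its coding transcript Bap1-201 (3460 bases) was at 6.42, 6.56 and 6.66 TPM in G643W and 6.42, 6.90 and 7.73 TPM in WT libraries. The excess by TPM was outside Bap1-201, in shorter forms annotated as targets of nonsense-mediated decay or as retained introns. Bap1-205, a target of nonsense-mediated decay of 814 bases, had 1.45, 1.50 and 1.53 TPM in G643W, from 118, 181 and 137 estimated reads, and 0.20, 0 and 0.88 TPM in WT, from 20, 0 and 85 estimated reads (log2 difference 1.98 ± 1.44 SE, edgeR adjusted p = 0.782).

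Foxk1 (ENSMUSG00000056493, chromosome 5, 142401497 to 142462011, plus strand) and Foxk2 (ENSMUSG00000039275, chromosome 11, 121259990 to 121309896, plus strand) encode forkhead factors that bring the complex to DNA. Foxk1 had 61.5, 73.3 and 79.5 CPM in G643W and 69.9, 53.9 and 67.1 CPM in WT libraries (log2 difference 0.17 ± 0.20 SE, 95% interval from -0.31 to 0.64, edgeR adjusted p = 0.753). Foxk2 had 52.1, 47.9 and 46.9 CPM in G643W and 39.8, 47.7 and 60.7 CPM in WT libraries, where the WT libraries spread over a range that held all 3 G643W libraries. The log2 difference of Foxk2 was -0.01 ± 0.21 (SE, 95% interval from -0.52 to 0.49, edgeR adjusted p = 0.985). Foxk1 made up 31.4, 39.7 and 37.5% of the summed TPM of the Foxk genes in G643W libraries and 42.0, 36.6 and 31.4% in WT libraries, with overlap. The noncoding transcript Foxk2-203, of 452 bases, had 2.07, 1.29 and 1.44 TPM in G643W and 1.22, 0.90 and 1.11 TPM in WT libraries, without overlap (log2 difference 0.43 ± 0.43 SE, edgeR adjusted p = 0.833).

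Hcfc1 (ENSMUSG00000031386, chromosome X, 73942792 to 73966357, minus strand), host cell factor, is a scaffold that Bap1 binds and that Ogt cleaves and modifies. It had 255, 198 and 202 CPM in G643W and 156, 161 and 204 CPM in WT libraries. WT library 3 lay within the G643W range, and the log2 difference was 0.33 ± 0.22 (SE, 95% interval from -0.19 to 0.85, edgeR adjusted p = 0.593). Of its full-length forms, Hcfc1-201 had 7.70, 5.08 and 6.94 TPM in G643W and 3.52, 4.21 and 5.51 TPM in WT libraries (log2 difference 0.44 ± 0.23 SE, edgeR adjusted p = 0.73). The shorter coding form Hcfc1-203 (3480 bases) had 8.36, 5.81 and 5.61 TPM in G643W and 7.61, 6.36 and 5.97 TPM in WT libraries, and its log2 difference was -0.13 ± 0.23 (SE, edgeR adjusted p = 0.902). Hcfc1-204, a noncoding form of 476 bases, had 7.37, 4.97 and 6.98 TPM in G643W and 3.00, 0 and 5.12 TPM in WT libraries. Hcfc1-203 has no stretch of 31 bases of its own, so the division between these forms is an estimate.

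Ogt (ENSMUSG00000034160, chromosome X, 101640060 to 101684351, plus strand), the only enzyme that adds O-linked GlcNAc to nuclear and cytosolic proteins, had the largest standard error of the 10 genes. It had 124, 221 and 220.1 CPM in G643W and 153, 245 and 203 CPM in WT libraries, so library 1 of either genotype was the lowest of its group. Its log2 difference was -0.09 ± 0.31 (SE, 95% interval from -0.81 to 0.63, edgeR adjusted p = 0.921). Much of the Ogt RNA was outside coding transcripts. Ogt-204, a retained-intron form of 3087 bases, held 25.0, 27.6 and 30.3% of Ogt TPM in G643W libraries and 22.0, 21.3 and 26.1% in WT libraries, which overlapped (two-sided exact permutation p = 0.2). The ratio of Ogt to Mgea5, which encodes the enzyme that removes the sugar, was 1.34, 1.37 and 1.45 in G643W and 1.48, 2.60 and 1.76 in WT libraries by TPM. Each G643W library lay below each WT library in that ratio, at the smallest p that the design allows (two-sided exact permutation p = 0.1). However, G643W library 3 at 1.45 and WT library 1 at 1.48 were nearly equal, and WT library 2 lay far above the rest. The p was not adjusted, and no share over all genes was taken for such ratios. Hcfc1 and Ogt are X-linked, and Xist, the RNA of the inactive X chromosome, had 122, 518 and 729 CPM in G643W and 298, 1101 and 884 CPM in WT libraries, with the lowest value of each genotype again in library 1. The summed CPM of 4 Y-linked genes was from 3.55 to 5.56 in G643W libraries and from 3.15 to 3.78 in WT libraries. Most of each sum was Kdm5d, at 2.97 to 4.91 CPM in G643W and 2.81 to 3.08 CPM in WT libraries. Ddx3y, Eif2s3y and Uty had at most 0.71 CPM in any library. Xist overlapped between genotypes, and the part of its level in the Hcfc1 and Ogt values was not tested.

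Kdm1b (ENSMUSG00000038080, chromosome 13, 47043499 to 47085279, plus strand), a demethylase of histone H3 lysine 4, was the least abundant member. It had 2.24, 2.51 and 2.64 TPM in G643W and 2.64, 2.42 and 3.18 TPM in WT libraries, with overlap, and its log2 difference was -0.14 ± 0.24 (SE, 95% interval from -0.70 to 0.42, edgeR adjusted p = 0.829). Its coding transcripts alone gave 2.24, 1.99 and 1.81 TPM in G643W and 2.30, 2.42 and 2.68 TPM in WT libraries. The groups were apart there, but G643W library 1 and WT library 1 lay close together (two-sided exact permutation p = 0.1). By counts on coding transcripts alone the log2 difference was -0.14 (edgeR adjusted p = 0.802). Its exons overlap those of Dek on the opposite strand by 505 bases, and exons of Asxl1 and Asxl2 overlap low-level antisense transcripts by 197 and 155 bases. Dek had 312 to 341 CPM in G643W and 260 to 385 CPM in WT libraries, far above Kdm1b. Of the 4957 stretches of 31 bases in Kdm1b-201, 475 also occur, on either strand, in transcripts of other genes. The strand setting of the counting was not given in the sources used here, and the part of Dek reads in the Kdm1b values was not tested.

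Mbd5 (ENSMUSG00000036792, chromosome 2, 48949508 to 49325405, plus strand) and Mbd6 (ENSMUSG00000025409, chromosome 10, 127281956 to 127289018, minus strand) encode alternative partners of the Asxl and Bap1 core. Mbd5 had 13.04, 22.4 and 19.4 CPM in G643W and 11.8, 11.8 and 15.6 CPM in WT libraries. G643W library 1 lay within the WT range, and the log2 difference was 0.48 ± 0.30 (SE, 95% interval from -0.22 to 1.18, edgeR adjusted p = 0.578), the next largest among the members after Asxl1 by counts. It was smaller by limma on log2(TPM + 1), at 0.14, where Hcfc1 was at 0.51 and Asxl2 at 0.35, and with length-scaled counts, at 0.18, and it stood at 0.76 without G643W library 1 and at 0.31 without G643W library 2. Its profile over the 6 libraries was also the closest to that of Asxl1 among the other 9 members, with a root mean square difference of 0.33 log2 units. Exons of Mbd5 overlap those of Orc4 on the opposite strand by 136 bases, and Orc4 had 27.1 to 33.6 CPM in G643W and 30.7 to 39.0 CPM in WT libraries, above Mbd5 in each library, so the same limit of strand applies. Mbd5 is also on chromosome 2 but outside the region of Asxl1, and the 13 genes within 5 Mb of it had a regional difference of -0.10. With that subtracted, Mbd5 stood at 0.02, 0.54 and 0.30 in G643W and at -0.21, -0.51 and -0.04 in WT libraries, a net difference of 0.54 without overlap (two-sided exact permutation p = 0.1). Most Mbd5 transcripts were low, and the one with the most reads, Mbd5-202, had 0.65, 0.70 and 0.89 TPM in G643W and 0.52, 0.54 and 0.65 TPM in WT libraries (log2 difference 0.29 ± 0.26 SE, edgeR adjusted p = 0.818).

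Mbd6 had 93.0, 119 and 108 CPM in G643W and 129, 108 and 125 CPM in WT libraries, with overlap (log2 difference -0.18 ± 0.20 SE, 95% interval from -0.64 to 0.28, edgeR adjusted p = 0.722). Its forms did not lie on the same side. Mbd6-201, the transcript with the most reads, had 5.11, 5.38 and 6.33 TPM in G643W and 4.52, 4.34 and 5.38 TPM in WT libraries (log2 difference 0.12 ± 0.18 SE, edgeR adjusted p = 0.891). Mbd6-202, of 4287 bases, had 1.27, 2.36 and 1.58 TPM in G643W and 2.51, 2.22 and 3.65 TPM in WT libraries (log2 difference -0.77 ± 0.35 SE, edgeR adjusted p = 0.709). For both forms the groups overlapped, and Mbd6-201 has no stretch of 31 bases of its own. Mbd6-204, a target of nonsense-mediated decay, was listed at 0, 1.11 and 0 TPM in G643W and at 3.73, 1.35 and 1.08 TPM in WT libraries. Mbd5 made up 11.02, 20.5 and 15.0% of the summed TPM of Mbd5 and Mbd6 in G643W libraries and 10.7, 10.995 and 18.8% in WT libraries.

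**Figure D5:**
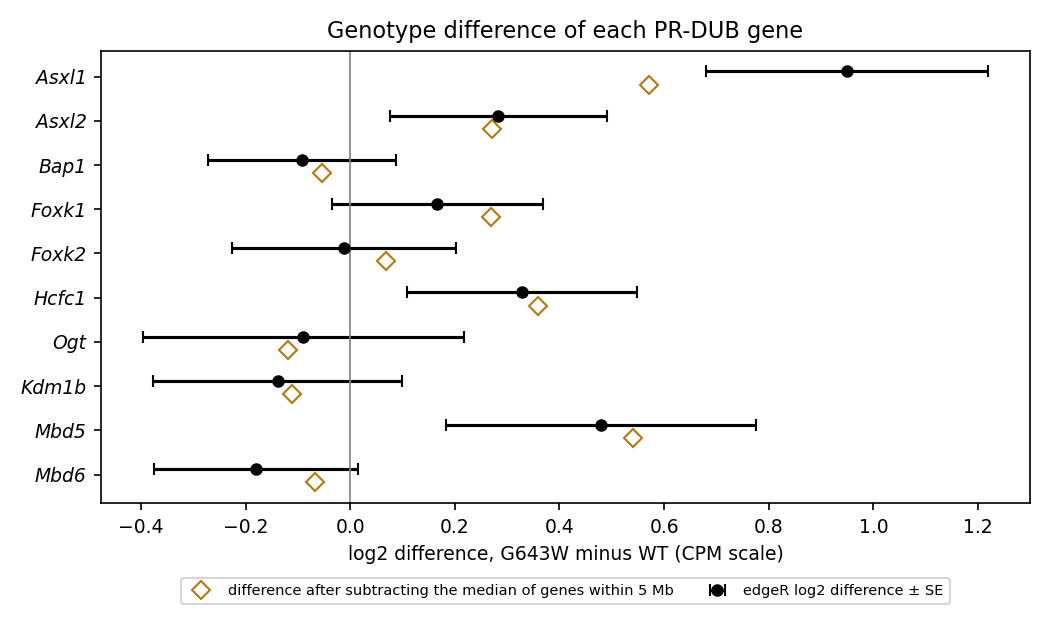
Log2 difference of each gene, G643W minus WT, from the count model with its standard error (black), and the difference of log2 CPM after the median of genes within 5 Mb is subtracted (open diamonds). Asxl1 lies at 0.95 in the count model and at 0.57 after subtraction, Mbd5 at 0.48 and 0.54, and the other 8 genes lie between -0.18 and 0.36 on both scales.

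Over all transcripts of the 10 genes, 62 of 66 had reads and 57 passed the filter. None of the 57 passed the threshold, where 0.0085% of the 58839 transcripts tested did (edgeR, adjusted p under 0.05), and 2 of them, Asxl1-201 and Asxl2-206, had an unadjusted edgeR p under 0.05, against 7.15% of all transcripts. In 9 every G643W library lay above every WT library by CPM, where 7.63% of all tested transcripts did so. In 1, Mbd5-210, every G643W library lay below, against 8.69% of all tested transcripts. Among the 9 were Asxl1-201, Asxl1-202, Asxl1-204 and Asxl1-205, which share most of their sequence. The log2 difference was positive in 39 of 57, with a median of 0.34 beside 0.004 over all transcripts. Transcripts of the same gene share sequence and reads, so neither count is of independent members. The fit does not carry the error of dividing reads among transcripts, and 11 of the 66 have no private stretch of 31 bases.

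The share of each gene's TPM in transcripts annotated as coding was lower in G643W libraries for several members. Of the 9 members with reads in both coding and other transcripts, 4 had every G643W library below every WT library and 1, Mbd6, had every G643W library above, where 8.17% and 4.35% of 11321 genes did so. The share of Asxl1 was 52.7, 49.2 and 65.5% in G643W and 82.2, 88.1 and 67.7% in WT libraries. That of Asxl2 was 74.0, 76.1 and 76.8% in G643W and 86.3, 82.9 and 83.5% in WT libraries. For Bap1 it was 45.5, 46.4 and 36.0% in G643W and 52.5, 56.9 and 51.1% in WT libraries. Hcfc1 had 70.5, 69.4 and 64.5% in G643W and 79.8, 95.9 and 71.7% in WT libraries. For each of these 4 shares the exact permutation p was 0.1, and 0.2 adjusted over the 10 shares. By estimated reads in place of TPM the differences were smaller, at -1.23 points for Asxl1, -6.48 for Asxl2, -4.65 for Bap1 and -1.05 for Hcfc1. By reads Asxl1 overlapped between genotypes, while Asxl2, Bap1 and Hcfc1 still lay lower in each G643W library, where 9.79% of 10777 genes did so. Part of the Asxl2 difference was Asxl2-206. Asxl2 had 86.0, 89.0 and 90.5% of its reads in coding transcripts in G643W libraries and 95.7, 94.9 and 94.4% in WT libraries. With the reads of Asxl2-206, which has no private stretch, counted as coding, the G643W libraries stood at 93.8, 94.4 and 92.6%, the difference was -1.39 points and the groups overlapped.

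Genes around the complex were read from 10 lists of related proteins, 71 genes of which 69 were tested. None passed the threshold by edgeR (smallest adjusted p = 0.484), and 4 had an unadjusted edgeR p under 0.05. The log2 difference was positive in 29 and negative in 40, with a median of -0.06, and the genotypes did not overlap in 8.70% of the 69, beside 15.9% of all genes. The PRC1 ubiquitin ligases, which write the mark that Bap1 removes, had 3 positive and 7 negative members of 10, with a median of -0.23. Bmi1, a PRC1 subunit needed by stem cells, had 39.7, 20.7 and 22.6 CPM in G643W and 33.6, 61.02 and 51.1 CPM in WT libraries (log2 difference -0.81 ± 0.34 SE, edgeR adjusted p = 0.511). Pcgf5, the paralogous subunit with the lowest p in the positive direction, had 57.5, 64.6 and 68.5 CPM in G643W and 41.3, 44.5 and 63.2 CPM in WT libraries. Readers of ubiquitinated H2A had 3 of 4 members negative, with Aebp2 at -0.48 and Rsf1 at 0.10 in log2 difference.

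Among other histone deubiquitinases and their cofactors 6 of 13 were positive. Usp16, which also removes ubiquitin from H2A, had 33.5, 25.7 and 28.8 CPM in G643W and 37.2, 38.2 and 46.6 CPM in WT libraries, without overlap (log2 difference -0.47 ± 0.21 SE, edgeR adjusted p = 0.52), and Usp46 had a log2 difference of 0.97. Of the UCH family, to which Bap1 belongs, and its partners 1 of 5 was positive, with Uchl3 at 0.0079 and the rare Uchl1 at -1.62. In O-GlcNAc cycling and sugar supply 2 of 6 were positive, Mgea5 at 0.44 among them. Uap1, which makes the sugar donor used by Ogt, had 48.5, 36.6 and 39.4 CPM in G643W and 54.7, 70.4 and 57.6 CPM in WT libraries, without overlap (log2 difference -0.55 ± 0.21 SE, edgeR adjusted p = 0.498).

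HCF partners had 9 of 14 positive. Hcfc2, the paralog of Hcfc1, had 31.9, 47.8 and 43.4 CPM in G643W and 17.8, 25.5 and 29.5 CPM in WT libraries, without overlap (log2 difference 0.76 ± 0.27 SE, edgeR adjusted p = 0.493), and E2f4 had a log2 difference of -0.31. For relatives and partners of Kdm1b, Kdm1a stood at -0.10 and Rcor1 at 0.36, and for other methyl-CpG-binding genes, 5 of 9 positive, Mbd3 stood at -0.43 and Baz2b at 0.55. All 5 tested nuclear receptors that bind Asxl proteins were negative, with Nr1h2 near 0 at -0.02. Rara, Pparg, Nr1h2 and Rxra each overlapped between genotypes, as did the summed CPM of the list. Nr1h3, the oxysterol receptor LXRα, had 0.80, 0.45 and 0.51 CPM in G643W and 3.09, 2.41 and 0.93 CPM in WT libraries, without overlap (log2 difference -1.86 ± 0.58 SE, edgeR adjusted p = 0.484); DESeq2 called it, with an adjusted p of 0.0493.

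The libraries differed in the cells or RNA they held. Ptprc, the leukocyte antigen CD45, had 365 to 1084 CPM in G643W and 565 to 913 CPM in WT libraries, and the summed CPM of 6 progenitor and promyelocyte genes was from 1337 to 12133 in G643W and from 1824 to 9380 in WT libraries. Of these 6 genes 4 were positive and 2 negative. Among them Cd34 had 120, 29.5 and 62.3 CPM in G643W and 243, 394 and 146 CPM in WT libraries, without overlap. Its log2 difference was -1.89 ± 0.57 (SE, edgeR adjusted p = 0.477). Neutrophil genes (8 of 8 positive) summed to 9617, 125422 and 67226 CPM in G643W and to 1498, 9209 and 48880 CPM in WT libraries, with overlap. Monocyte genes (4 of 5 negative) summed to between 2674 and 3369 CPM in G643W and between 3568 and 4300 CPM in WT libraries. Ly6c2, the positive gene and the largest part of each sum, had 2367 to 2561 CPM in G643W and 1484 to 3191 CPM in WT libraries. F13a1 and Ccr2 lay apart by genotype but did not pass (log2 differences -2.07 and -1.33, edgeR adjusted p = 0.454 and 0.493). Csf1r and Cx3cr1 overlapped. Dendritic genes (5 of 5 negative, 2 past the threshold) summed to between 128 and 188 CPM in G643W and between 871 and 1262 CPM in WT libraries. Cd74 made up most of each sum, at 90.5 to 141 CPM in G643W and 696 to 964 CPM in WT libraries. H2-Eb1 had 15.8 to 23.9 CPM in G643W and 136 to 251 CPM in WT libraries. Cd74 and H2-Eb1 were the genes past the threshold (edgeR adjusted p = 0.0428 and 0.0257). Cd209a and Siglech also lay apart by genotype but did not pass (edgeR adjusted p = 0.155 and 0.346). Itgax overlapped (log2 difference -0.25 ± 0.25 SE, edgeR adjusted p = 0.701). Genes of lineages that the sort removes were low, with at most 12.2 CPM summed for T cells, 2.92 for B cells and 4.46 for red cells. The T cell maximum, in G643W library 3, was mostly Cd4 at 11.1 CPM, with Cd3e at 0.22 and Cd3g at 0.66 CPM. The sort also kept cells with low Gr1, while the neutrophil gene Ly6g ranged from 4.48 to 347 CPM in G643W and from 3.71 to 139 CPM in WT libraries. In bulk RNA fewer cells of a type and less RNA per cell cannot be told apart, and the part of these differences in the values of the PR-DUB genes was not tested. Library totals were 61167075 to 101189225 estimated reads in G643W and 69885969 to 76060388 in WT libraries, and each member had at least 835 reads in each library.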

How the data were processed

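RNA sequencing of 6 libraries was used, 3 per genotype. The submitters' processing notes name bcl2fastq, Salmon 0.12.0 and the builds mm10 and GRCm38.p6, with options and index not given in the sources used here. Each deposited table holds, per the file headers, an estimated count (expected count) per transcript and its TPM from the authors' Salmon run. Salmon divides shared reads among transcripts by a model, so values of overlapping transcripts are estimates.

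Of 136288 transcripts per table, 136176 matched GENCODE M21 and were summed over 53458 genes; the 112 others held at most 0.0365% of reads. Estimated counts were rounded, filtered by filterByExpr (minimum count 10), TMM-scaled and tested two-sided with edgeR 4.0.16 (glmQLFit, glmQLFTest, genotype only) in R 4.3.3, over all 20654 genes and, separately, all 58839 transcripts, with Benjamini-Hochberg adjustment and a threshold of 0.05. A standard error is the absolute log2 difference over the square root of F, an interval uses the t quantile at edgeR's total degrees of freedom, and CPM is TMM-scaled. Single values and shares were compared by exact permutation of the 6 libraries.

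Members and lists were chosen with earlier results of these data known. Named were all members, the lowest p per direction in each list, and the 5 genes most like Asxl1 (at least 5 TPM, log2 CPM with 0.5 added). Member transcripts with at least 1 TPM and 5% of their gene in either genotype, or with the most reads, numbered 29. The Results give no levels for Bap1-203, Bap1-204, Foxk1-201, Foxk2-201, Foxk2-202, Hcfc1-202, Ogt-201, Ogt-203, Kdm1b-201, Kdm1b-204, Mbd6-203, Mbd6-205, Mbd6-206 and Mbd6-207. In each of those the genotypes overlapped by TPM. Of transcripts named besides the 29, Asxl1-204, Asxl1-205, Asxl2-206 and Mbd5-210, all were chosen after their values were seen. A private stretch is a 31-base sequence found in no other annotated transcript. BLAST+ 2.17.0 found no near-identical copy of a member. No libraries agreed within sampling noise. Alternatives were other scaling, no filter, limma 3.58.1 on log2 TPM with 1 or 0.1 added, length-scaled counts, DESeq2 1.42.0, coding transcripts alone, a replicate block and each library left out; after the data were seen, subtraction of neighbouring genes and counting Asxl2-206 as coding were included. The procedure was tested on simulated data.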

Additional observations from a re-analysis of the deposited data

How the results depend on the processing

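No member gene was called under any alternative. Asxl1 kept a positive difference in all 17, between 0.57 with neighbouring genes subtracted and 1.50, with edgeR, limma or DESeq2 adjusted p from 0.129 to 0.96; Asxl2, Foxk1, Hcfc1 and Mbd5 also stayed positive, Mbd5 between 0.14 and 0.76. With Asxl2-206 counted as coding, a choice made after seeing the data, the Asxl2 coding share by TPM differed by -3.07 points. Of transcripts, DESeq2 called 1, Asxl2-206, and among list genes it called Nr1h3 (adjusted p = 0.0493).

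Members near 0 changed sign. With limma on log2(TPM + 1), log2(TPM + 0.1) and length-scaled counts the log2 differences were 0.22, 0.24 and 0.20 for Bap1, 0.24, 0.28 and 0.20 for Foxk2, 0.02 each for Ogt, and 0.23, 0.25 and 0.19 for Kdm1a. Foxk2 was at 0.06 on coding transcripts and at 0.07 and 0.08 with genes within 5 and 10 Mb subtracted, Mbd6 at 0.01 on coding transcripts, Rsf1 at -0.02 with length-scaled counts, Uchl1 at 0.06 with limma on log2(TPM + 0.1), and Uchl3 at -0.03 without scaling and 0 without a filter. Limma on those TPM scales gave 0.06 and 0.07 for Foxk2-201, 0.04 and 0.03 for Ogt-203, 0.09 and 0.10 for Mbd6-205 and 0.04 and 0.10 for Mbd6-207. Ogt-203 was at 0.01 with RLE factors and DESeq2 and 0 without a filter, and Mbd6-205 at 0 with RLE factors and DESeq2. The cause was not tested.

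Leaving out each library gave -0.18 to 0.06 for Bap1, -0.15 to 0.23 for Foxk2, -0.26 to 0.23 for Ogt, -0.25 to 0.03 for Kdm1b, -2.71 to 1.32 for Uchl1, -0.16 to 0.30 for Uchl3, -0.14 to 0.03 for Kdm1a, -0.08 to 0.21 for Bap1-204, -0.20 to 0.09 for Foxk2-201, 0 to 1.83 for Foxk2-202, -0.20 to 0.31 for Ogt-203, -0.29 to 0.04 for Kdm1b-201, -0.05 to 0.05 for Mbd6-205 and -0.52 to 0.53 for Mbd6-207.

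The background of 25 genes (11 higher, 14 lower) became 37 and 67 without a filter, 19 and 24 with limma on log2(TPM + 0.1), 164 and 263 with DESeq2, and 1 and 1 on coding transcripts; lower genes numbered 8 without scaling, 7 with limma on log2(TPM + 1) and 2 with length-scaled counts. Of transcripts (4 higher, 1 lower), 16 and 14 passed without a filter, 46 and 48 with limma on log2(TPM + 1), 103 and 112 on log2(TPM + 0.1), 430 and 615 with DESeq2, and 0 were lower without scaling. Each library left out gave 0 to 13 higher and 0 to 7 lower genes and 0 to 1 higher and 0 lower transcripts, on fewer samples; without WT library 2 no gene passed, with 1277 at an unadjusted edgeR p under 0.05.

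The replicate numbers do not pair the libraries: deviations of same-numbered libraries correlated at 0.11, -0.16 and 0.18. With the number as a block edgeR called 0 genes and 0 transcripts in either direction, with 1772 and 3247 at an unadjusted p under 0.05, and Foxk2 was at 0.01.

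With 3 libraries a group and a biological coefficient of variation of 52.8% over genes and 76.2% over transcripts, the Asxl1 difference of 0.95 did not pass the threshold, so differences of that size or smaller in single members could go uncalled.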
